A study of Mus musculus with 3 samples.

Results

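The genes described here mark the two-cell-like state of mouse embryonic stem (ES) cells: *Zscan4c*, *Zscan4d*, *Zscan4f*, *Tcstv1*, *Tcstv3*, *Zfp352*, *Dppa2* and *Dppa4*. They were chosen by name, as 8 genes known for this state, with earlier results of these data known. Of the 8 genes, 6 were listed under their own name in all samples, among 25350 genes listed in this way. *Tcstv3* and *Dppa2* had no row of their own and were not part of a joined gene name either.

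RNA-seq was performed on 3 samples, 1 for each condition, so the comparisons rest on single samples and no test was run. The 3 conditions were wild-type ES cells (WT), ES cells in which *Pcgf1* had been disrupted with Cas9 and a pair of sgRNAs against exons 2 and 3 (Pcgf1-/-), and Pcgf1-/- cells carrying a lentiviral FLAG-tagged *Pcgf1* (Pcgf1-/-+Pcgf1). *Pcgf1* encodes a Polycomb group RING finger protein of the PRC1.1 complex, which ubiquitinates histone H2A. All cells had the strain label C57BL/6 and grew with serum and leukemia inhibitory factor on mitomycin-C-treated embryonic fibroblasts, whose RNA can be part of each sample. The edited cells were picked as colonies, so clonal differences and the genotype cannot be told apart. The Pcgf1-/-+Pcgf1 cells were further infected with lentivirus and selected with puromycin, and no sample carried an empty vector. Infection, selection and the return of *Pcgf1* cannot be told apart either. In bulk RNA, fewer cells in a state and less RNA per cell cannot be told apart.

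At any time a small minority of cultured ES cells passes through a state that resembles the embryo at its 2-cell stage, when the zygotic genome is first transcribed. The factor Dux switches on many genes of that stage, *Zscan4* and *Zfp352* among them, while DPPA2 and DPPA4 act upstream of *Dux* and are made in most ES cells. ZSCAN4 proteins carry a SCAN domain and zinc fingers and are known for telomere maintenance. *Zscan4c* is known as the copy used in ES cells and *Zscan4d* as the copy used in embryos. *Tcstv1* and *Tcstv3* are named for transcripts found in 2-cell embryos, and *Zfp352* encodes a zinc finger protein.

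In the mm10 annotation (GENCODE vM21), the *Zscan4* members lie in 1 cluster on chromosome 7. *Zscan4c* (ENSMUSG00000054272) spans 11005745 to 11010547 on the plus strand. *Zscan4d* (ENSMUSG00000090714) spans 11161374 to 11166159 on the minus strand, and *Zscan4f* (ENSMUSG00000070828) spans 11397915 to 11402318 on the plus strand. *Zfp352* (ENSMUSG00000070902) spans 90218820 to 90225702 of chromosome 4, plus strand. *Tcstv1* (ENSMUSG00000096284) and *Tcstv3* (ENSMUSG00000095821) lie on chromosome 13, the first on the minus strand from 119893388 to 119894785 and the second on the plus strand from 120316878 to 120318178. *Dppa4* (ENSMUSG00000058550) spans 48283733 to 48294237 on the plus strand of chromosome 16, and *Dppa2* (ENSMUSG00000072419) starts 9670 bases after it on the same strand.

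The promoters of the *Zscan4* members are shown because these genes were listed together in 1 sample, and that of *Zfp352* because it was listed in the same sample without sharing their sequence. The sequences are from RefSeq (GRCm38.p6, the same assembly as mm10) and read 5′ to 3′ along the gene's strand. They end before the most upstream first exon in the lists. They cover chr7:11005495-11005721 (plus strand) for *Zscan4c*, chr7:11166183-11166398 (minus strand) for *Zscan4d*, chr7:11397665-11397914 (plus strand) for *Zscan4f* and chr4:90218570-90218819 (plus strand) for *Zfp352*. Capitals mark matches to the motif known for Dux, searched on both strands as TGATT and ATCA with any 2 bases between them, and to TATAAA, the TATA box.
Zscan4c: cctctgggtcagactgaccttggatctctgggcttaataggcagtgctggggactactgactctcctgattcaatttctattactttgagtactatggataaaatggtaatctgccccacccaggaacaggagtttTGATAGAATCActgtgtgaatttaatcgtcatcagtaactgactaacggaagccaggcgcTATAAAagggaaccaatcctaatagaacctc
Zscan4d: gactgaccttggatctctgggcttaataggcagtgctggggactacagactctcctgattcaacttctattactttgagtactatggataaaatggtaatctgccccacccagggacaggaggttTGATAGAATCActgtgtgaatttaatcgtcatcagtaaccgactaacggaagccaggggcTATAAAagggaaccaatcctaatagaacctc
Zscan4f: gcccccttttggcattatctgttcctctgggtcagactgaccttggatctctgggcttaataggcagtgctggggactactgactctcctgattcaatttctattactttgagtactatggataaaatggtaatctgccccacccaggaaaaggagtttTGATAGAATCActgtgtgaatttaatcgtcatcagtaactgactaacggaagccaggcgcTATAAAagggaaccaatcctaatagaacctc
Zfp352: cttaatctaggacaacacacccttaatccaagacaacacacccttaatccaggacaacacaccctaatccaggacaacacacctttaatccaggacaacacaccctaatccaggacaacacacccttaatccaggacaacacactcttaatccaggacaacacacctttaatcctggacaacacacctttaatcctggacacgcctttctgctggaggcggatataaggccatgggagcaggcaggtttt

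The match to the Dux motif in each *Zscan4* promoter is TGATAGAATCA, which reads TGATTCTATCA on the other strand. It lies 49 bases before TATAAA in all 3 genes. Of 32851 mouse promoters of 300 bases (250 before to 50 after the start), 0.207% held the Dux motif on either strand, 8.32% held TATAAA on the gene's strand and 4.40% held TGCACAC, a motif known for ZSCAN4, on either strand. *Zscan4b*, a further copy in the cluster, held the first of these motifs and TATAAA as well. None of the 4 *Zscan4* promoters held TGCACAC in this window, and *Zfp352* held none of the 3 motifs.

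The *Zscan4* promoters were nearly the same sequence. Over their aligned stretch, *Zscan4c* and *Zscan4f* were 99.3% identical, *Zscan4c* and *Zscan4d* 97.6%, and *Zscan4d* and *Zscan4f* 97.4%. The promoters of these 4 members were poor in CpG, the dinucleotide of CpG islands. *Zscan4c* had 4 CpG in 300 bases, *Zscan4d* 3, *Zscan4f* 3 and *Zfp352* 2, against a median of 7 over all promoters. The ratio of observed to expected CpG was 0.242 for *Zscan4c*, 0.176 for *Zscan4d*, 0.186 for *Zscan4f* and 0.142 for *Zfp352*, against a median of 0.384.

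The lists give FPKM (fragments scaled to transcript length and library size) for each first exon, last exon and splicing event. The level of a gene was the larger of its first-exon and last-exon FPKM sums. A gene was called higher or lower past a 2-fold ratio after 0.1 FPKM was added to both values, which understates changes of low genes. Between 62.0% and 63.6% of the rows of a list were at 0, and 57 genes stood above 5 FPKM in one sample and at 0 in another, so a value of 0 can be a failed estimate. The first step of the low values would mean about 19400000 fragments in WT, about 20600000 in Pcgf1-/- and about 20100000 in Pcgf1-/-+Pcgf1, provided that step is 1 fragment.

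*Pcgf1* itself was listed at 13.95 in WT, 5.88 in Pcgf1-/- and 7.86 FPKM in Pcgf1-/-+Pcgf1. The log2 ratio was -1.23 for Pcgf1-/- against WT and 0.41 for Pcgf1-/-+Pcgf1 against Pcgf1-/-. In Pcgf1-/- all of this signal was carried by a form that skips 83078895 to 83079268 on chromosome 6, the place of the targeted exons 2 and 3, and the form that includes it was at 0. That skipping event was not listed for the other samples. The sample with the lentiviral gene stood below WT in this RNA level. That level does not separate the lentiviral copy from the disrupted gene, so it does not measure how much intact *Pcgf1* returned.

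Comparison of Pcgf1-/- with WT asks whether the loss of *Pcgf1* moved these genes. None of the 6 members was called in either direction, and the share over all 25350 genes was 7.14%. For so few genes, no call is near that share, and only *Dppa4* was above 0 in these samples. The count therefore says little about the members. *Zscan4c*, *Zscan4d*, *Zscan4f*, *Tcstv1* and *Zfp352* were listed at 0 in both samples. *Dppa4* was listed at 139.5 FPKM in WT and 140.2 FPKM in Pcgf1-/-. For the members at 0, the data give no ratio, and lower or higher levels under the worth of a fragment could not be seen at this depth.

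Comparison of Pcgf1-/-+Pcgf1 with the other samples covers the return of *Pcgf1* together with the infection and selection of these cells. In Pcgf1-/-+Pcgf1, 4 of the 5 members that were at 0 in WT and in Pcgf1-/- were listed above 0, all of them at low levels. Of the 11926 genes at 0 in both of those samples, 5.33% were listed above 0 in Pcgf1-/-+Pcgf1. The order of the low levels was *Zscan4f*, *Zscan4c*, *Zscan4d* and *Zfp352*, with *Tcstv1* at 0. Without replicates the spread that belongs to these levels is not known.

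**Figure D1:**
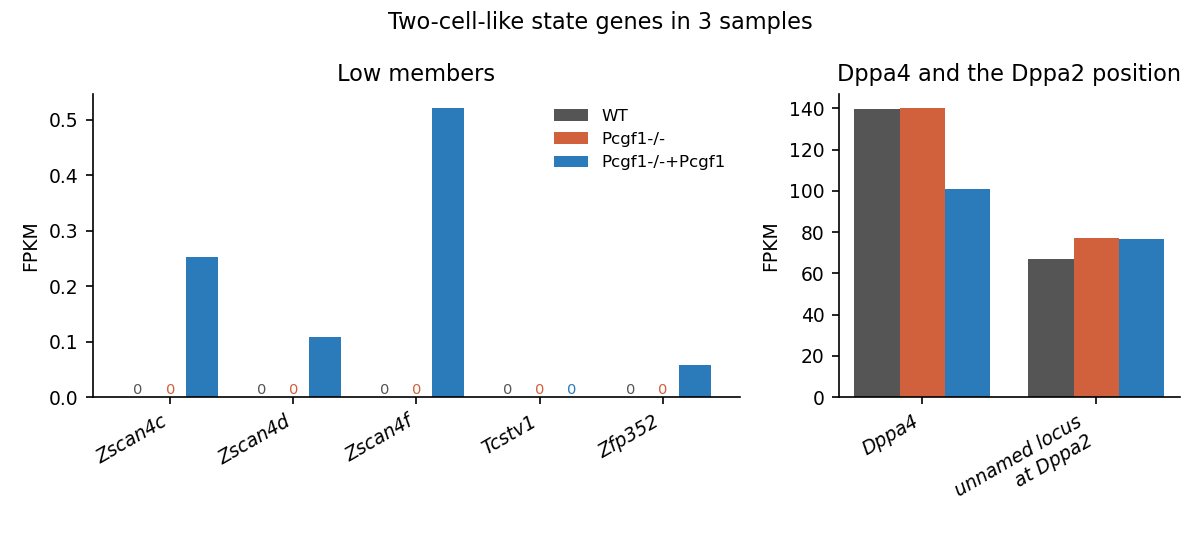
FPKM (vertical axes, linear from 0) of the members in WT, Pcgf1-/- and Pcgf1-/-+Pcgf1, 1 sample each, with 0 written where a gene was listed at 0. The 5 low members on the left were at 0 in WT and Pcgf1-/-, with up to 0.521 FPKM in Pcgf1-/-+Pcgf1, and *Dppa4* and the unnamed locus at the place of *Dppa2* (last exons) on the right stood above 60 FPKM in all 3 samples.

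*Zscan4f* was listed at 0 in WT, 0 in Pcgf1-/- and 0.521 FPKM in Pcgf1-/-+Pcgf1. *Zscan4c* was listed at 0, 0 and 0.253 FPKM in the same order. *Zscan4d* was listed at 0, 0 and 0.109 FPKM. These were the 3 of 6 members called higher in Pcgf1-/-+Pcgf1, both against Pcgf1-/-, where 6.35% of all genes were called higher, and against WT, where 3.99% were. The members listed at 0 in WT and Pcgf1-/- could not be called lower, and *Dppa4*, the only one that could, was not. Over all genes, 2.22% were lower against Pcgf1-/- and 2.36% against WT, for 8.57% and 6.34% called in either direction.

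The levels of the *Zscan4* members correspond to few fragments. If the first step of the low values is 1 fragment, *Zscan4f* had about 19.1 fragments in Pcgf1-/-+Pcgf1, *Zscan4c* 11.6 and *Zscan4d* 4.96. In WT, 1 fragment would have been worth 0.0227 FPKM on *Zscan4c* and 0.0282 FPKM on *Zscan4f*. The levels of *Zscan4c* and *Zscan4f* in Pcgf1-/-+Pcgf1 were more than 10 times that worth. Those of *Zscan4d* (0.109 FPKM against a worth of 0.0227 in WT) and *Zfp352* (0.0588 against 0.0227) were not.

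*Zscan4f* had 2 first exons with signal in Pcgf1-/-+Pcgf1. The first exon that starts at 11397915 on chromosome 7, the annotated start, carried 0.141 FPKM, and the one that starts at 11397938 carried 0.379 FPKM. The exon from 11398090 to 11398219 was listed in a form that includes it and in a form that skips it. The skipping form carried all of the signal and the form with the exon was at 0.

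Both further copies listed were also above 0 in Pcgf1-/-+Pcgf1 alone, but of them *Zscan4b* was called and *Zscan4e*, worth about 1.10 fragments, was not. *Zscan4b* was listed at 0 in WT, 0 in Pcgf1-/- and 0.188 FPKM in Pcgf1-/-+Pcgf1, and *Zscan4e* at 0, 0 and 0.0314 FPKM. Summed over these 5 genes, the *Zscan4* family was at 0 in WT, 0 in Pcgf1-/- and 1.10 FPKM in Pcgf1-/-+Pcgf1, or about 43.4 fragments. The 3 members made up 0.883 FPKM of that sum.

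**Figure D2:**
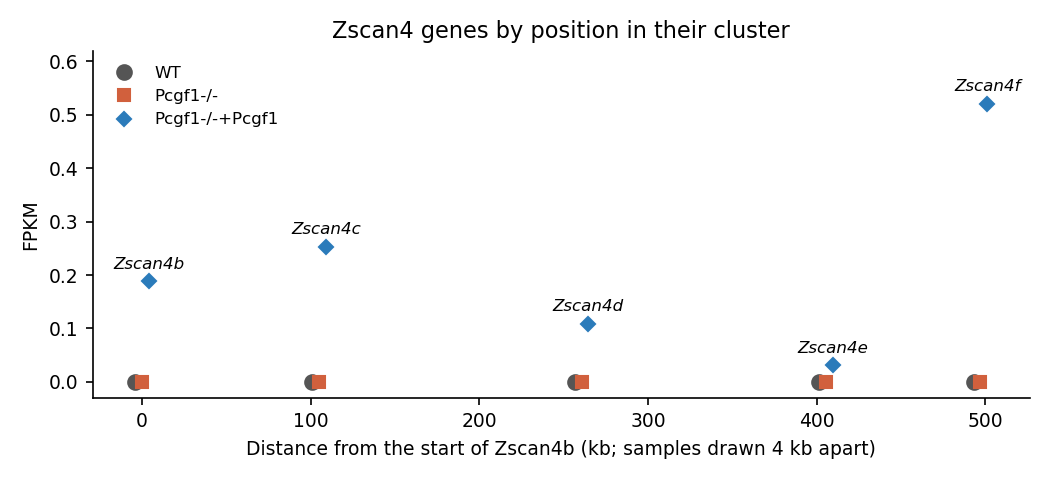
FPKM (vertical axis, linear) of 5 *Zscan4* genes against the distance of the gene's start from the start of *Zscan4b* in kilobases, with the samples drawn side by side (WT circles, Pcgf1-/- squares, Pcgf1-/-+Pcgf1 diamonds). All 5 genes were above 0 in Pcgf1-/-+Pcgf1, *Zscan4f* at the far end highest at 0.521 FPKM and *Zscan4e* lowest at 0.0314 FPKM, and all were at 0 in the other samples.

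The division of signal among the *Zscan4* copies is uncertain. Of the 150-base windows in the longest annotated transcript, 86.2% in *Zscan4f* occur without a mismatch in another gene's transcript, most often *Zscan4-ps2*. The share was 61.0% in *Zscan4c*, 68.4% in *Zscan4b* and 77.4% in *Zscan4e*. It was lowest in *Zscan4d*, at 13.0%. The read length was 150 bases, so a read from a shared window does not tell the copies apart. The way in which reads with several positions were counted is not given in the sources used here. The sum over the family is therefore uncertain too. It could hold a shared read more than once, and it leaves out *Zscan4-ps2*. In Pcgf1-/-+Pcgf1, the loci of *Zscan4b*, *Zscan4d* and *Zscan4f* carried another form of identifier than in WT and Pcgf1-/-, while those of *Zscan4c*, *Zscan4e* and *Zfp352* did not. Its part in the result was not tested.

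**Figure D3:**
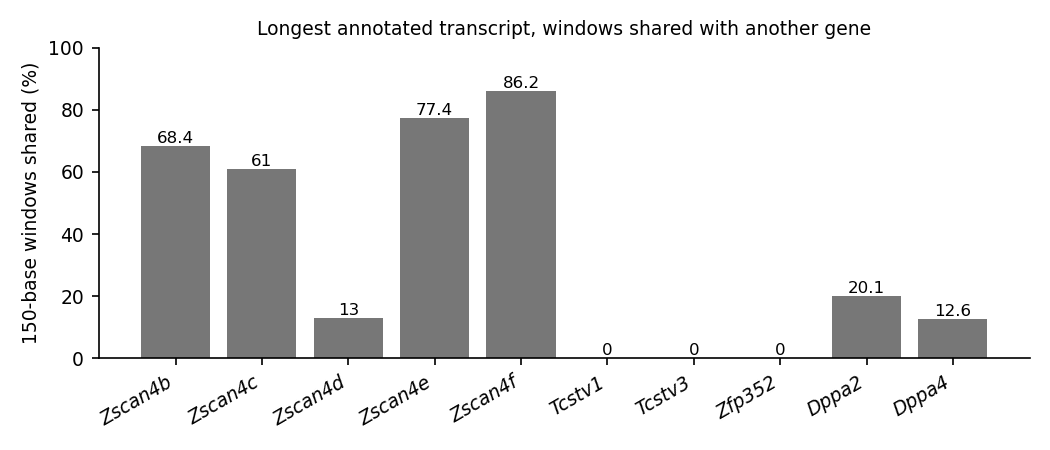
Percent of 150-base windows (vertical axis) of each gene's longest annotated transcript that also occur in a transcript of another gene, for the members and for *Zscan4b* and *Zscan4e*. The share is 86.2% in *Zscan4f* and 13.0% in *Zscan4d*, and 0 in *Tcstv1*, *Tcstv3* and *Zfp352*.

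*Zfp352* was listed at 0 in WT, 0 in Pcgf1-/- and 0.0588 FPKM in Pcgf1-/-+Pcgf1. It was thus the lowest of the members seen in that sample, with about 2.69 fragments, and it was not called. No window of its transcript was shared with another gene. *Tcstv1* was listed at 0 in all 3 samples, and its transcript too shared no window with another gene. *Tcstv3* has no value here.

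*Dppa4*, which encodes a nuclear protein with a SAP domain, was the highest of the members that were listed by name. It stood at 139.5 FPKM in WT, 140.2 FPKM in Pcgf1-/- and 100.8 FPKM in Pcgf1-/-+Pcgf1. The values in WT and Pcgf1-/- lay 0.475% apart, a log2 ratio of 0.0068 on FPKM plus 0.1. The level in Pcgf1-/-+Pcgf1 was lower than in Pcgf1-/- (log2 ratio -0.48) and than in WT (log2 ratio -0.47). Neither ratio reached 2-fold, and both lay within the central range of the 5875 genes above 5 FPKM in all samples. For those genes, the 5th and 95th percentiles were -0.68 and 0.54 against Pcgf1-/- and -0.62 and 0.38 against WT. The *Dppa4* level was thus below that of the other samples where the *Zscan4* members stood above it, by a ratio within the range of most well-expressed genes.

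A single first exon and a single last exon carried the whole of the *Dppa4* signal in every sample. An exon of 51 bases, from 48289328 to 48289378 on chromosome 16, was listed in a form that includes it and in a form that skips it. The including form carried all of the signal in the 3 samples and the skipping form was at 0. That exon is part of 1 of the 3 annotated *Dppa4* transcripts. *Dppa4* shared 12.6% of its windows with 1 other gene, *Gm14058*.

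Of 9738 other genes with at least 1 FPKM in a sample, the pattern over the 3 samples was most like that of *Dppa4* in *Depdc7* and *Mov10*, by distance between centred log2 values. *Depdc7* was at 9.84 in WT, 9.87 in Pcgf1-/- and 7.08 FPKM in Pcgf1-/-+Pcgf1. *Mov10*, which encodes an RNA helicase, was at 76.3, 76.5 and 55.3 FPKM. With 3 points per gene such likeness is a description only.

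*Dppa2*, whose protein partners with that of *Dppa4*, had no row by name, but a locus without a name stood in its place on the plus strand in all 3 lists. Its last exon started at 48318633 on chromosome 16, which is the start of an annotated *Dppa2* exon. The last exons of this locus carried 67.0 FPKM in WT, 77.2 FPKM in Pcgf1-/- and 76.7 FPKM in Pcgf1-/-+Pcgf1. By this measure the samples were close, with log2 ratios of 0.20 for Pcgf1-/- against WT, -0.01 for Pcgf1-/-+Pcgf1 against Pcgf1-/- and 0.19 for Pcgf1-/-+Pcgf1 against WT.

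The first exons of the same locus gave other values, 11.8 FPKM in WT, 77.2 FPKM in Pcgf1-/- and 9.98 FPKM in Pcgf1-/-+Pcgf1. In Pcgf1-/- a first exon from 48310477 to 48310539, which has both ends of an annotated *Dppa2* exon, carried 68.3 FPKM, and one from 48303932 to 48304206 carried 8.88 FPKM. In WT and in Pcgf1-/-+Pcgf1, the only listed first exon ran from 48308420 to 48308480, where no *Dppa2* exon is annotated. The transcripts assembled at this place therefore differed between the lists, and no difference in level was read from the first exons. *Dppa2* shared 20.1% of its windows with other genes.

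A list of 70 further genes known from 2-cell embryos and two-cell-like ES cells was compared with the members, and 40 of them were listed by name. This list was set up with earlier results of these data known, so its shares are a description only. Of the 40, WT had 7 above 0, Pcgf1-/- had 4 and Pcgf1-/-+Pcgf1 had 19. Of the 33 that were at 0 in WT and in Pcgf1-/-, 13 (39.4%) were above 0 in Pcgf1-/-+Pcgf1, whereas the share over all genes was 5.33%. The corresponding share for WT alone was 4.76% (1 of 21), against 3.09% over all genes, and none of 20 genes was above 0 in Pcgf1-/- alone, against 2.05% over all genes.

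The 13 genes were all low. The highest were *Tmem92*, a transmembrane protein gene, at 0.357 FPKM, and *Gm21761* at 0.266 FPKM in Pcgf1-/-+Pcgf1, both listed at 0 in the other samples. *Usp17le*, a deubiquitinase gene, was at 0.190 FPKM, and *Zscan4b* at 0.188 FPKM. *Gm4340* stood at 0.124 FPKM. The others were *Usp17lc*, *Gm13078*, *Gm12794*, *Gm2016*, *Gm8300*, *Gm4027*, *Pramef25* and *Zscan4e*, between 0.0314 and 0.0836 FPKM. These names were given after their values had been seen. In all, 7 of the 13 had a level of at least 3 estimated fragments, and 11 remain when the *Zscan4* copies are left out. The share over all genes at that fragment limit was not computed. No window of *Tmem92* was shared with another gene, while *Gm21761* shared 28.4% of its windows with another gene. Apart from these genes and the *Zscan4* copies, shared windows were not computed for the 13. Whether several of them were listed from the same reads was not tested, so they cannot be counted as separate signals.

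By the 2-fold call, 7 of the 40 genes were higher in Pcgf1-/-+Pcgf1 than in Pcgf1-/- and 5 were higher than in WT. The shares called higher over all genes were 6.35% and 3.99%. None of the 40 was lower in either comparison, but those listed at 0 in WT and Pcgf1-/- could not be called lower. The 5 genes of the list with at least 1 FPKM in a sample did not share the pattern of the low genes. *Rnf213* was at 3.96 in WT, 4.52 in Pcgf1-/- and 4.01 FPKM in Pcgf1-/-+Pcgf1. *Zfp365* was at 5.71, 4.98 and 3.65 FPKM, and *Zfp640* at 2.16, 2.38 and 3.42 FPKM. *Ddit4l* was at 2.26, 1.84 and 2.30 FPKM. *Pdzk1*, which encodes a scaffold protein with PDZ domains, was at 2.12 FPKM in WT, listed at 0 in Pcgf1-/- and at 1.66 FPKM in Pcgf1-/-+Pcgf1, and was the 1 gene of the list called in Pcgf1-/- against WT. The *Pdzk1* call was absent when the last exons alone were used, and 7.14% of all genes were called in that comparison. The median log2 ratio over these 5 genes was -0.19 for Pcgf1-/- against WT, 0.31 for Pcgf1-/-+Pcgf1 against Pcgf1-/- and 0.02 for Pcgf1-/-+Pcgf1 against WT. Over all 9739 genes with at least 1 FPKM in a sample, it was -0.09, -0.01 and -0.11.

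**Figure D4:**
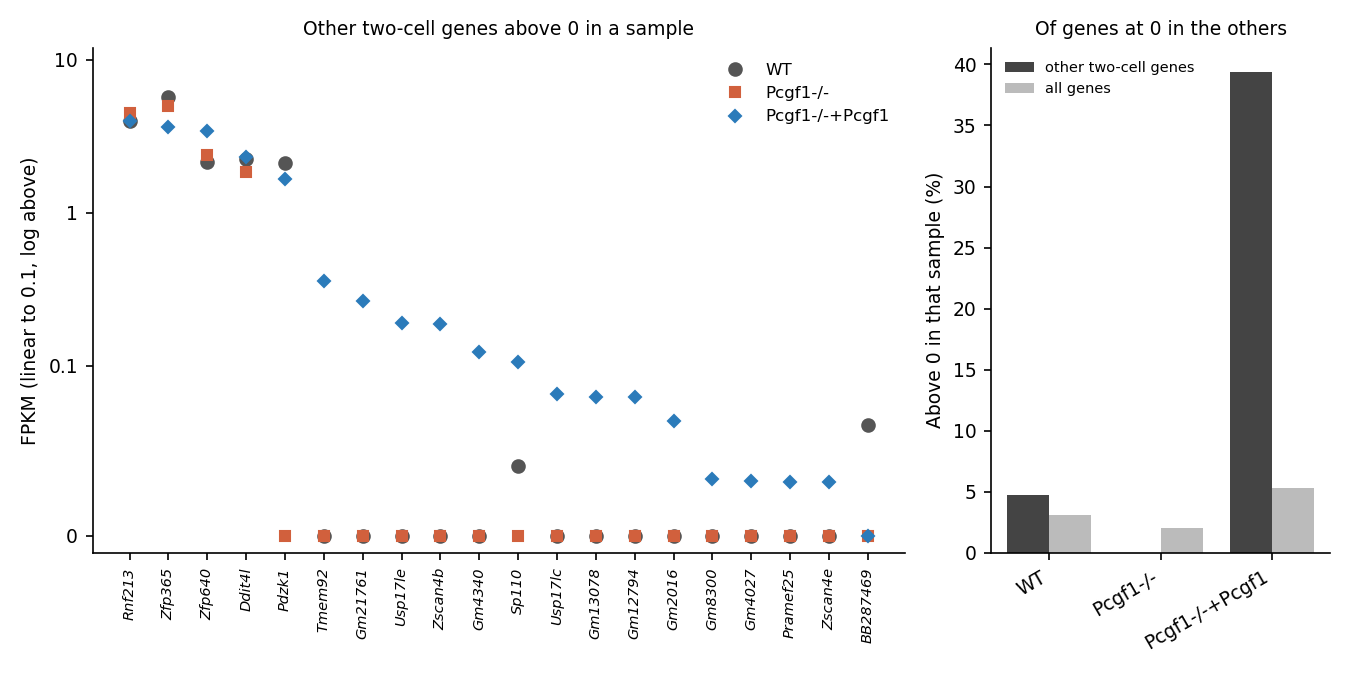
On the left, FPKM (linear up to 0.1, logarithmic above) of the other two-cell genes that were above 0 in any sample, with WT as circles, Pcgf1-/- as squares and Pcgf1-/-+Pcgf1 as diamonds. On the right, of the genes at 0 in the other samples, the percent above 0 in the named sample, for the other two-cell genes (dark) and for all genes (light), with 39.4% against 5.33% in Pcgf1-/-+Pcgf1. The list was set up with earlier results of these data known.

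Factors reported to promote the two-cell-like state were listed by name in 11 of 14 cases. *Duxf3*, the gene for Dux, was listed at 0 in every sample, as were *Obox3* and *Obox5*. The joined locus *Duxbl1*/*Duxbl2*/*Duxbl3*, of the related double homeobox genes, carried 2.07 on its first exons in WT, 0.377 in Pcgf1-/- and 0.548 FPKM in Pcgf1-/-+Pcgf1. On its last exons the locus was at 0, 0 and 0.0205 FPKM, so the higher level in WT was seen on first exons alone. The gene for Dux was thus not seen in the sample in which its targets *Zscan4* and *Zfp352* were listed. Such a 0 can be a failed estimate, and shared windows were not computed for *Duxf3*.

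Of the 11 promoting factors, 1 was called higher and 1 lower in Pcgf1-/- against WT, where 2.16% of all genes were higher and 4.98% lower. In Pcgf1-/-+Pcgf1, 3 were called higher against Pcgf1-/- and 1 against WT, where the shares over all genes were 6.35% and 3.99%. *Tbx3*, a T-box factor, was at 0.233 in WT, 1.43 in Pcgf1-/- and 3.61 FPKM in Pcgf1-/-+Pcgf1, highest in the sample with *Zscan4* signal. *Gadd45g*, of a family linked to DNA demethylation, was at 8.59, 1.75 and 4.87 FPKM. *Kdm6b*, a histone H3K27 demethylase named here after its values had been seen, was the other gene called higher against Pcgf1-/-, with a log2 ratio of 1.45. *Zscan10* was at 44.1, 35.9 and 31.3 FPKM, lowest in the sample with *Zscan4* signal, and *Trp53*, for the p53 protein, at 314.5, 264.3 and 345.3 FPKM. *Yy1* (25.97, 30.03 and 25.72 FPKM), *Gadd45a* (15.9, 10.1 and 15.7 FPKM) and *Gadd45b* (12.5, 23.7 and 13.5 FPKM) stayed within 2-fold in the 3 comparisons.

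Factors reported to restrain the state were listed by name in 33 of 41 cases, all of them above 0 in the 3 samples. In Pcgf1-/- against WT, 1 of the 33 was called higher and none lower. In Pcgf1-/-+Pcgf1, 1 was called lower than in Pcgf1-/- and 1 higher than in WT. The first of these calls and the call against Pcgf1-/- were those of *Myc*, at 30.3 in WT, 65.5 in Pcgf1-/- and 23.2 FPKM in Pcgf1-/-+Pcgf1. The call against WT was that of *Bcor*, a partner of *Pcgf1* in PRC1.1, at 4.06, 5.33 and 9.49 FPKM, named here after its values had been seen. The median log2 ratio over the 33 genes was -0.02 for Pcgf1-/- against WT, 0.01 for Pcgf1-/-+Pcgf1 against Pcgf1-/- and -0.05 for Pcgf1-/-+Pcgf1 against WT. Over all genes, 2.16% were called higher and 4.98% lower in Pcgf1-/- against WT. In Pcgf1-/-+Pcgf1, 2.22% of all genes were lower than in Pcgf1-/- and 3.99% higher than in WT.

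Abundant restraining factors held similar levels in the 3 samples. *Trim28*, a corepressor recruited by zinc finger proteins, was at 648.9 in WT, 553.2 in Pcgf1-/- and 604.8 FPKM in Pcgf1-/-+Pcgf1. *Uba2*, a subunit of the SUMO-activating enzyme, was at 139.8, 133.2 and 142.2 FPKM. The histone deacetylase gene *Hdac1* was at 138.0, 139.9 and 134.2 FPKM, and *Lin28a*, for an RNA-binding protein, at 117.6, 89.2 and 109.8 FPKM. All log2 ratios between these levels lay between -0.40 and 0.30.

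**Figure D5:**
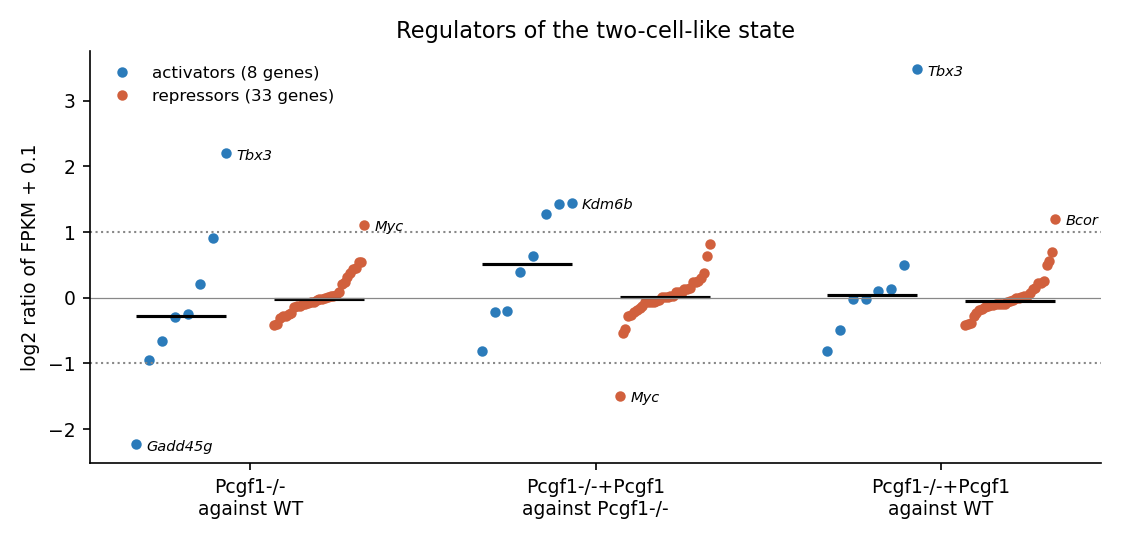
Log2 ratios of FPKM plus 0.1 (vertical axis) in the 3 comparisons for 8 promoting factors (blue) and 33 restraining factors (orange) listed above 0 in all samples, with the median of each group as a black line, 2-fold as dotted lines and the outermost genes past 2-fold named. The restraining factors centre near 0 with *Myc* and *Bcor* outside 2-fold, and *Tbx3* is at 3.48 in Pcgf1-/-+Pcgf1 against WT.

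Other genes named for developmental pluripotency association were set beside *Dppa4*. *Dppa3*, a maternal factor that protects DNA methylation in the zygote, was at 38.3 in WT, 17.5 in Pcgf1-/- and 60.1 FPKM in Pcgf1-/-+Pcgf1. It was thus lowest in Pcgf1-/- and highest in Pcgf1-/-+Pcgf1 (log2 ratio -1.13 for Pcgf1-/- against WT and 1.78 for Pcgf1-/-+Pcgf1 against Pcgf1-/-), an order other than that of *Dppa4*. *Dppa1* was listed at 0 in WT, 0 in Pcgf1-/- and 0.450 FPKM in Pcgf1-/-+Pcgf1, the pattern of the *Zscan4* members.

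The label of ES cells was checked on 15 markers, of which 11 were listed by name and all of those were above 0 in the 3 samples. *Pou5f1*, for the factor Oct4, was at 669.5 in WT, 518.3 in Pcgf1-/- and 625.9 FPKM in Pcgf1-/-+Pcgf1. *Klf2* was at 517.0, 590.2 and 356.5 FPKM, *Utf1* at 600.2, 677.6 and 463.9 FPKM, *Tdgf1* at 449.4, 518.9 and 394.1 FPKM, and *Esrrb* at 85.3, 94.8 and 77.2 FPKM. *Klf4*, at 2.62, 1.19 and 8.07 FPKM, was called lower in Pcgf1-/- than in WT and stood highest in Pcgf1-/-+Pcgf1, as *Tbx3* did. *Nanog*, named here after its values had been seen, was at 68.2, 46.3 and 123.0 FPKM. Of the 11 markers, 3 were called higher and none lower in Pcgf1-/-+Pcgf1 against Pcgf1-/- (*Nanog*, *Klf4* and *Tbx3*), and 2 were higher and none lower against WT. The shares over all genes were 6.35% higher and 2.22% lower against Pcgf1-/-, and 3.99% and 2.36% against WT.

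Markers of other cells that the cultures could hold were summed beside the *Zscan4* result. Of 23 fibroblast markers, 20 were listed, and Pcgf1-/- had 15 of them above 0 while both other samples had 17. Their summed level was 43.0 in WT, 25.2 in Pcgf1-/- and 38.3 FPKM in Pcgf1-/-+Pcgf1. *Postn*, *Mmp3* and *Fap* were at 0 in the 3 samples. The 11 primitive endoderm markers listed summed to 297.0, 340.9 and 314.3 FPKM, and 11, 10 and 9 of them were above 0. The 8 trophoblast markers listed summed to 155.6, 146.6 and 88.4 FPKM, with 7 above 0 in each sample and *Hand1* at 0. Single markers did not all follow these sums. In Pcgf1-/-+Pcgf1, 6 fibroblast markers were called higher and 1 lower against Pcgf1-/-, and 3 were higher and 2 lower against WT. Of the trophoblast markers, 1 was called higher and 2 were called lower in each of these comparisons, the lower ones being *Krt8* and *Krt18*. Of the primitive endoderm markers, none was higher and 3 were lower against Pcgf1-/-, and 1 was higher and none lower against WT. The shares over all genes were 6.35% higher and 2.22% lower against Pcgf1-/-, and 3.99% and 2.36% against WT. The part of such cells in the levels of the members was not tested.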

How the data were processed

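RNA-seq of ES cells covered 3 conditions with 1 sample per condition. Libraries were made from poly-T-selected RNA and, per the submitters' processing notes, handled with TopHat2 2.0.12, Cufflinks 2.2.1 and HTSeq 0.6.0 on mm10. The authors deposited 1 list per sample with an FPKM value for each transcript event. The program that wrote the lists, the annotation and the strand setting are not given in the sources used here. The lists hold no counts or totals, so depth was only estimated, from the lowest step of FPKM times length in genes with 1 transcript over 2000 bases, and no interval or test was computed.

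FPKM of first exons and of last exons were summed per gene name and the larger sum was taken. Joined names, unnamed loci and names in the form of dates were left out, and a gene had to be listed in all 3 lists. A gene was called past 2-fold on FPKM + 0.1. Sequences, gene positions and shared windows came from GENCODE vM21 and RefSeq. Of the 8 members, 4 had a RefSeq promoter in the table used.

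Members and lists were chosen with earlier results of these data known. Named genes were every member, *Pcgf1*, all listed *Dppa* genes, the genes most like a member, and, of the gene lists, those past 2-fold in Pcgf1-/- against WT with at least 1 FPKM and the 5 highest in WT. For the marker lists of other cells, sums were given in place of names, and 1 gene of the rule is not reported here. Alternatives were pseudocounts of 0.01 and 1, a filter at 1 FPKM, first or last exons alone and median-of-ratios scaling. Python 3.11.15 with numpy 2.4.6, pandas 2.3.3, matplotlib 3.10.9 and biopython 1.88 was used.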

Additional observations from a re-analysis of the deposited data

How the results depend on the processing

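The count of 3 members higher in Pcgf1-/-+Pcgf1, against Pcgf1-/- and against WT alike, went to 0 with a pseudocount of 1 FPKM and to 0 among genes with at least 1 FPKM, since all 3 levels were under 1 FPKM. It was 4 with a pseudocount of 0.01. The other two-cell genes called in Pcgf1-/- against WT were 1, and 3 with a pseudocount of 0.01 or 0 by last exons alone. In Pcgf1-/-+Pcgf1 against Pcgf1-/- they were 7, and 15 with a pseudocount of 0.01, 1 with a pseudocount of 1 and 1 among genes with at least 1 FPKM. Against WT they were 5, all higher, and 15 (14 higher and 1 lower), 0 and 0 under the same settings. The 13 such genes above 0 in Pcgf1-/-+Pcgf1 alone became 7 with at least 3 estimated fragments, a limit chosen after seeing the data. Median-of-ratios scaling raised all log2 ratios, by 0.12 for Pcgf1-/-+Pcgf1 against WT. Small ratios turned positive with it in this comparison, such as those of *Trim28* (-0.10 to 0.02), *Lin28a* (-0.10 to 0.03), *Pou5f1* (-0.10 to 0.03), *Hdac1* (-0.04 to 0.08), *Yy1* (-0.01 to 0.11) and *Gadd45a* (-0.02 to 0.11). No ratio past 2-fold of a named gene changed direction under the settings run. No paired analysis was possible because each condition had 1 sample, and no replicate could be left out. At this depth a gene below about 1 fragment was listed at 0, so the absence of these transcripts from WT and Pcgf1-/- was not shown.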
